A study of Mus musculus with 30 samples.

Results

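The genes described here were 45 genes of the cell cycle and DNA replication, named by symbol, in mouse olfactory epithelium after removal of the olfactory bulbs. They were read through probe sets, groups of short DNA probes for 1 transcript, and a probe set counted where the array's annotation gave it exactly 1 of these genes. Of the 45 genes 41 were represented, out of 8251 genes read in this way, by 60 of the 12422 probe sets that were not array controls. Ccnb1, Bub1b, Pole and Tyms had no probe set of their own. The series compared 6-week-old mice labelled wild type with mice labelled as SR-A mutants; SR-A is a scavenger receptor of macrophages, the product of the gene Msr1. The epithelium was dissected out at 0, 2, 8, 16 and 48 h after bilateral bulbectomy, surgery that takes out both bulbs, where the sensory axons end in the brain. There were 3 arrays for each of the 10 groups, 30 in all. The sources used here do not say how the mutant allele was made, on which strain it was kept, whether the 0 h mice had been operated on, or that each array came from a separate mouse. A p therefore reflects how far arrays spread within groups, and some of that spread could be technical.

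A cell enters the cycle when D and E cyclins with their kinases release E2F transcription factors from Rb proteins, which turns on the genes for copying DNA. The MCM ring is loaded at origins and unwinds DNA, polymerases with the PCNA clamp copy it, and cyclins A and B with Cdk1 then drive mitosis. In olfactory epithelium most cells are non-dividing neurons and supporting cells, and division is carried by basal progenitors that replace lost sensory neurons; bulbectomy is a standard way to make mature sensory neurons die together.

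Values were MAS5 signals, a linear brightness for each probe set. Testing was limited to probe sets with signals over 572, the median of all signals pooled, on 3 or more arrays; 35 member probe sets of 30 genes met this, among 6968 in all. Another 25 member probe sets stayed below this filter, and 4 of these lay at or below the floor of 113.7 in all 30 arrays. For 11 genes no probe set was tested: the G1 genes Ccnd2 and E2f1, the kinase inhibitor Cdkn1b, the mitotic genes Aurka, Aurkb, Birc5 and Bub1, the nucleotide enzyme Rrm2, the primase subunit Prim1 and the origin genes Cdc6 and Mcm6. Of the tested probe sets 15 exceeded the median in all 30 arrays, while Ccnd1 (94231_at) did so in 6, Pola1 in 5 and Top2a in 3. Where a gene had several probe sets, each is given, and names with _f_at, _r_at, _s_at or _g_at mark probe sets that can match related sequences or were picked by relaxed rules. Changes are differences between group means of log2 signals, with signals below the floor raised to it, ± standard error from limma, with 3 arrays per group. They can differ from the log2 ratio of the mean signals printed beside them. The standard errors draw on the spread within all groups of the fit and on that of other probe sets. Each adjusted p was corrected by the Benjamini-Hochberg method across those 6968.

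Checks on the arrays touched several results. Msr1 was dim and higher in the mutant-labelled arrays, with signals of 297.5 to 587.4 against 32.6 to 295.1 on its brighter probe set, so that it did not check the labels, and genotype directions rest on the labels. The Gapdh control probe sets, which compare the 3' and 5' ends of that transcript, differed by 5.59, 0.15 and 1.27 on the log2 scale in the 3 mutant-labelled 2 h arrays and by -0.31 to -0.13 in the other 27. Those 3 arrays were therefore kept out of the fit except where they were compared. Adcy3 and Cnga2, of the odour transduction pathway of mature sensory neurons, were bright on all 30 arrays, with lowest signals of 2878.5 for Adcy3 and of 4728.0 and 2989.0 for the 2 Cnga2 probe sets. Omp, the olfactory marker protein of the same cells, ranged from 128.5 to 40154.6, and its mean was 6827.4 in the mutant-labelled 2 h arrays beside 35031.8 at 0 h (-4.17 ± 0.86, adjusted p = 0.00165).

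The promoters of 4 members that passed in at least 1 comparison, 3 mitotic genes and a helicase gene, are shown because textbook regulation of such genes runs through known short motifs. Mitotic promoters often carry a CHR element (TTTGAA or TTCGAA) near CCAAT boxes, and replication promoters often carry an E2F element (TTTCCCGC or TTTGGCGC). All were searched on both strands from 250 bases before to 30 bases after the start, in RefSeq promoters of GRCm38.p6. TTCGAA reads the same on both strands, and no 2 matches in the printed sequences share a base. Capitals mark each match on either strand. Ccnb2 lies on the minus strand at chr9:70421525-70421804, Top2a on the minus strand at chr11:99024160-99024439, Mki67 on the minus strand at chr7:135716350-135716629 and Mcm3 on the minus strand at chr1:20820283-20820562.
Ccnb2: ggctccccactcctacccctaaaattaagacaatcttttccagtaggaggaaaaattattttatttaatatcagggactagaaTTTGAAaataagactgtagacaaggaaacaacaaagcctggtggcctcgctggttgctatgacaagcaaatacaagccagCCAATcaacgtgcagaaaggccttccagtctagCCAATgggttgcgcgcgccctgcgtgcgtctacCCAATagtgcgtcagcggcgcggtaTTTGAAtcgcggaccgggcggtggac
Top2a: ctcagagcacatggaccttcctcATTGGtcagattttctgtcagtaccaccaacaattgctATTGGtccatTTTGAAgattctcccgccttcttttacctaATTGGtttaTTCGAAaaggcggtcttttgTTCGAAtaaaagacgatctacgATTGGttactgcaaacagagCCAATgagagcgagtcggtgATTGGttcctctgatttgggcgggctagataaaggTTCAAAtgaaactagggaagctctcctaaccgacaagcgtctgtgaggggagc
Mki67: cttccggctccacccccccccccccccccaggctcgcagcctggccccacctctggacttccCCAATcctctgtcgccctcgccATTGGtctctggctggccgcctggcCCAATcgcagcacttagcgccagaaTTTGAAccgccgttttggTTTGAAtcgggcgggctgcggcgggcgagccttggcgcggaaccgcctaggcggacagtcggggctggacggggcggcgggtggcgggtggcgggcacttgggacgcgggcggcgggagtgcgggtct
Mcm3: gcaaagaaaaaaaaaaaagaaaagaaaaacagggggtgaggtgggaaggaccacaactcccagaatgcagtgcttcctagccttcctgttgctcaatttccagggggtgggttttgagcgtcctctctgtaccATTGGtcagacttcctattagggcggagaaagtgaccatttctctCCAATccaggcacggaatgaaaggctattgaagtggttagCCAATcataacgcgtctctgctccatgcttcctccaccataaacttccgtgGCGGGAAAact
The first 3, of mitotic genes, hold both CHR and CCAAT letters, and Mcm3, a helicase subunit gene, holds CCAAT boxes and 1 E2F match. The promoter table matched 38 member genes with 44 promoters. Among the 12 promoters of mitotic and S-to-M members 8 held CHR letters (66.7%) and 11 a CCAAT box (91.7%), and 0 held the E2F letters. Of all 32851 promoters of that length 18.4% held CHR letters, 36.1% a CCAAT box and 1.46% the E2F letters, which 6 of 19 promoters of replication members held (31.6%). Of those 19 promoters 4 held CHR letters (21.1%) and 12 a CCAAT box (63.2%). These are matches of letters in a window and not measured binding.

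The first question was whether cell cycle genes change in wild-type-labelled epithelium by 48 h after bulbectomy. They did not move as a block: 6 of 35 member probe sets (17.1%) passed, beside 18.8% of all tested probe sets, 3 higher and 3 lower. The mitotic genes Ccnb2 and Top2a and the kinase inhibitor Cdkn1a were lower, and the polymerase subunits Pold2 and Pola2 and the G1-to-S kinase Cdk2 were higher. The median member change was -0.06 and that of all tested probe sets -0.02. In these bulk samples fewer cells of a type and less RNA per cell cannot be told apart.

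**Figure D1:**
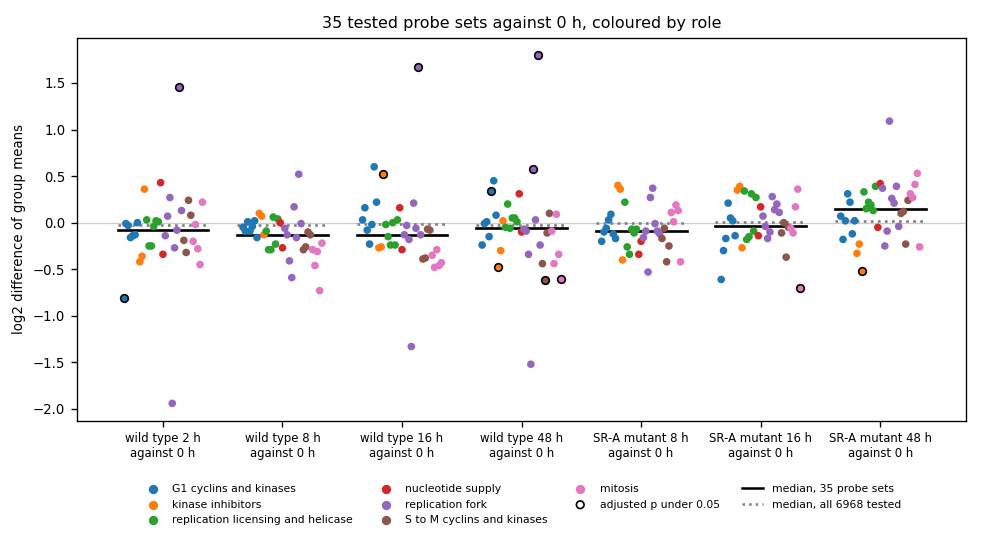
Log2 difference from 0 h (vertical axis) of the 35 tested member probe sets in 7 comparisons, coloured by role, with ringed points at adjusted p under 0.05, black bars at the member median and dotted bars at the median of all 6968. Most points lie near 0, the medians run from -0.13 to 0.15, and the highest point at 2, 16 and 48 h in wild-type-labelled arrays is Pold2, at 1.46, 1.67 and 1.80.

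Among the S-to-M and mitosis genes, Ccnb2 (94294_at), which encodes the mitotic cyclin B2, gave wild-type-labelled signals of 2105.6, 1699.0 and 1954.3 at 0 h and of 1610.8, 1382.0 and 860.5 at 48 h. All 48 h arrays lay below all 0 h arrays, with replicate 3 far below the other two, and the log2 change was -0.62 ± 0.17 (adjusted p = 0.0137). Top2a (99578_at), topoisomerase II alpha, which untangles DNA before division, gave 525.6, 517.8 and 467.0 at 0 h and 315.8, 439.7 and 256.1 at 48 h. These groups did not overlap either, and the change was -0.61 ± 0.15 (adjusted p = 0.00768).

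The remaining genes of these roles did not pass at 48 h. Ccna2, the S-phase and early mitotic cyclin A2, gave 2110.1, 1510.7 and 1550.9 at 0 h and 1410.6, 1522.4 and 926.4 at 48 h, a change of -0.44 ± 0.16 (adjusted p = 0.0589). Its groups overlapped, since 48 h replicate 2 lay above the lowest 0 h array. Mki67 (99457_at), the Ki-67 protein of dividing cells, gave 667.8, 881.5 and 801.7 at 0 h and 744.2, 749.8 and 338.4 at 48 h. Here 2 of the 48 h arrays lay inside the 0 h range and replicate 3 far below it (-0.44 ± 0.24, adjusted p = 0.217). Cdk1, the mitotic kinase, likewise gave 1112.9, 912.5 and 492.3 at 48 h beside 929.0, 785.2 and 865.6 at 0 h.

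One array carried much of the lower mitotic signal. Replicate 3 of the wild-type-labelled 48 h group was the lowest of its group in 23 of 35 member probe sets (65.7%), compared with 32.7% of all tested probe sets. The median change of the 5 mitosis probe sets was -0.34 with it and -0.06 without it, and that of the 4 S-to-M probe sets was -0.28 with it and -0.06 without it. Without that array Ccnb2 gave -0.36 (adjusted p = 0.0982) and Top2a -0.43 (adjusted p = 0.0561). Ccnb2 also lost its call without 0 h replicate 1 (-0.55, adjusted p = 0.0595), and Ccna2 passed without 48 h replicate 2 (-0.58, adjusted p = 0.0259). That 0 h replicate 1 was the highest of its group in 21 of 35 member probe sets (60.0%), compared with 35.9% of all tested probe sets. Such skews were not particular to the 48 h array. Wild-type-labelled 0 h replicate 2 was the lowest of its group in 60.0% of members, compared with 35.8% of all tested probe sets. For mutant-labelled 16 h replicate 3 these shares were 57.1% and 34.0%.

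Summed signals of some cell type markers moved over the same times, and others overlapped between 0 and 48 h. The summed signal of 3 mature sensory neuron genes, Omp, Adcy3 and Cnga2, was 44207.9 to 52586.9 at 0 h and 24327.2 to 29690.9 at 48 h in wild-type-labelled arrays, and 46710.1 to 52437.9 and then 26836.8 to 36943.7 in mutant-labelled ones. All 3 genes fell in both. The summed signal of 8 tested leukocyte genes was 11847.0 to 18375.1 at 0 h and 33645.4 to 46096.6 at 48 h in wild-type-labelled arrays, where 5 rose, and 21140.3 to 22472.9 and then 17563.3 to 25555.2 in mutant-labelled arrays, where Cd68 alone passed. Most of the wild-type-labelled gain came from S100a8 (group means of 3633.9 and 14405.0), S100a9 (2410.0 and 9092.0) and Lyz2 (3709.7 and 9799.5). The mean sums there were 15439.1 and 40488.5. The T cell genes Cd3e and Cd8a were at or below the floor in all 30 arrays. The summed signal of 7 basal and progenitor genes was 12730.6 to 13110.8 and then 16014.5 to 21831.1 in wild-type-labelled arrays, with 3 genes higher and Kit lower; Sox2, one of the 3, made up most of that gain, with group means of 7737.1 and 12982.0 out of sums of 12946.2 and 19106.3. The sum was 11381.3 to 12303.3 and then 14976.2 to 16102.5 in mutant-labelled arrays, with Hes6 higher. The basal keratins Krt5 and Krt14 were too dim to be part of it. The summed signal of 6 immature neuron genes overlapped between the times in both genotypes. It was 45241.2 to 57901.6 and then 41323.7 to 47633.3 in wild-type-labelled arrays, where Ncam1 alone passed, lower (-0.41, adjusted p = 0.022). In mutant-labelled arrays it was 43024.6 to 53348.0 and then 45877.6 to 61549.8, and 0 genes passed. The part of these marker values in the member values was not tested.

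**Figure D2:**
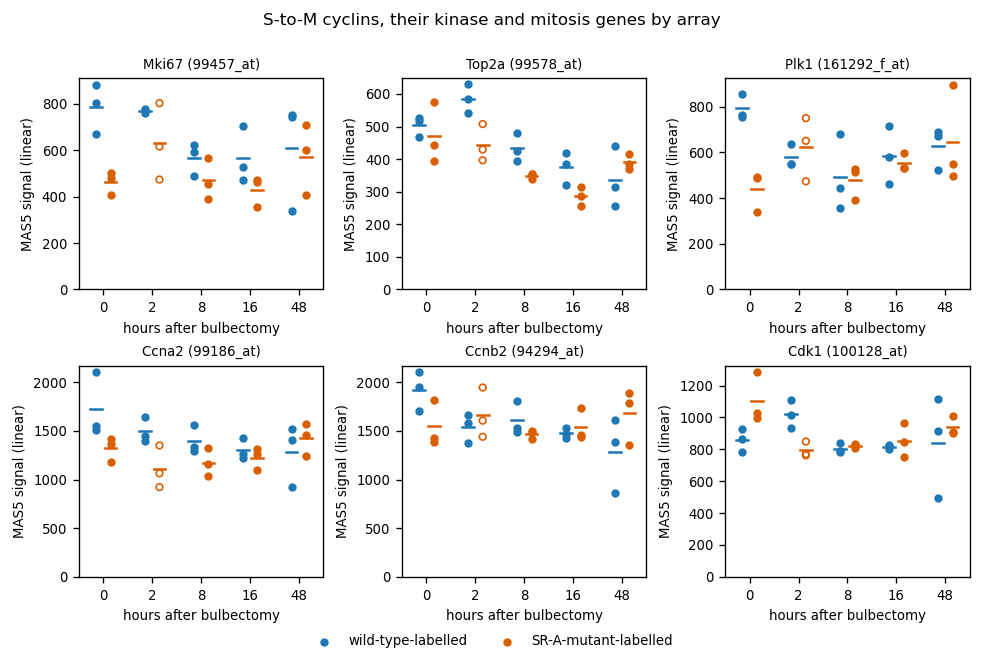
MAS5 signal on a linear axis from 0 (vertical) against hours after bulbectomy for 6 S-to-M and mitosis probe sets, 1 point per array, with bars at group means and open points for the mutant-labelled 2 h arrays. In the wild-type-labelled group 1 of the 3 arrays at 48 h lies far below the others for Mki67, Ccnb2 and Cdk1, at 338.4, 860.5 and 492.3.

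At the replication fork, Pold2 (98155_r_at), a regulatory subunit of DNA polymerase delta, had the largest change of any tested member at 16 and 48 h in these arrays. It gave 592.7, 359.6 and 388.5 at 0 h, then 1264.3, 1256.4 and 1088.7 at 2 h. It gave 801.5, 866.3 and 353.2 at 8 h, 1669.9, 1409.9 and 1143.7 at 16 h, and 2075.8, 1327.8 and 1262.1 at 48 h. All arrays at 2, 16 and 48 h lay above all arrays at 0 h, while the 8 h arrays were split, with replicate 3 at the 0 h level. The change from 0 to 2 h was 1.46 ± 0.25 (adjusted p = 0.0115). It was 1.67 ± 0.25 by 16 h (adjusted p = 0.000995) and had reached 1.80 ± 0.25 by 48 h (adjusted p = 4.39e-05). At 2 h the call was lost without 0 h replicate 3 (1.38, adjusted p = 0.0786) or 2 h replicate 2 (1.43, adjusted p = 0.0753). Pold2 had this single probe set, of the _r_at kind, so no other probe set bears on it.

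Pola2 (98006_at), the B subunit of the polymerase alpha and primase complex that starts new strands, gave 600.1, 701.9 and 780.9 at 0 h and 1103.7, 961.0 and 1041.2 at 48 h. The groups lay well apart (0.58 ± 0.13, adjusted p = 0.00367), and the call held in every setting tried and without any single array. Its other probe set, 161739_r_at, pointed the other way and did not pass, with 1048.6, 259.9 and 660.9 at 0 h and 246.7, 184.8 and 167.8 at 48 h (-1.52 ± 0.65, adjusted p = 0.107). The direction for Pola2 therefore rests on 1 of 2 probe sets. Other fork genes stayed near their 0 h level: Pcna, the sliding clamp, gave 5431.5, 5347.2 and 5430.4 at 0 h and 5037.8, 5141.9 and 5069.3 at 48 h (-0.09 ± 0.10, adjusted p = 0.592), and Lig1, the ligase that joins the new fragments, changed by -0.07 ± 0.15.

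The helicase and nucleotide genes gave no call in the wild-type-labelled time course. At 48 h the 6 tested licensing and helicase probe sets, for Mcm2, Mcm3, Mcm4, Mcm5, Mcm7 and Cdc45, ranged from -0.06 to 0.20, the highest being Mcm2 (0.20 ± 0.11, adjusted p = 0.246). Rrm1, the large ribonucleotide reductase subunit, gave 0.31 ± 0.20 and Tk1, thymidine kinase, -0.10 ± 0.23. These standard errors set how small a change could have been seen.

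**Figure D3:**
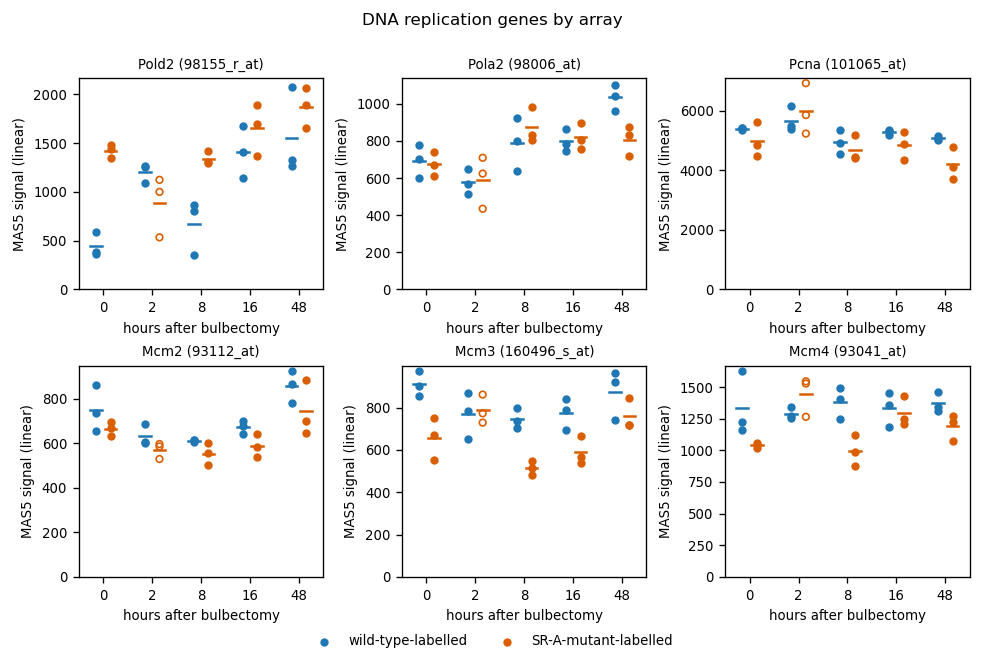
MAS5 signal on a linear axis from 0 (vertical) against hours after bulbectomy for 6 DNA replication probe sets, 1 point per array, with bars at group means and open points for the mutant-labelled 2 h arrays. Wild-type-labelled Pold2 starts at 359.6 to 592.7 and ends at 1262.1 to 2075.8, while mutant-labelled Pold2 starts at 1350.2 to 1476.9, and Pcna stays between 3718.4 and 6932.2 over all arrays.

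Among G1 genes and inhibitors, Cdk2 (94412_at), the kinase partner of cyclins E and A, gave 574.2, 572.4 and 636.0 at 0 h and 795.3, 769.5 and 689.1 at 48 h, both wild-type-labelled. The 48 h arrays were all higher (0.34 ± 0.11, adjusted p = 0.0435), but the call was lost without 5 of the 6 arrays taken singly, all but 48 h replicate 3, at 0.30 to 0.39 with an adjusted p of up to 0.152, and also without the filter, with the replicate block or with all 30 arrays in the fit. The other Cdk2 probe set, 94411_at, was at or below the floor in 29 of 30 arrays. Cdkn1a encodes p21, the p53-induced inhibitor of cyclin-dependent kinases. Its 94881_at gave 2865.1, 2590.5 and 2718.3 at 0 h and 2050.7, 1630.3 and 2231.8 at 48 h, with all 3 arrays below the 0 h range (-0.48 ± 0.17, adjusted p = 0.0466). That call too was lost without 5 of the 6 arrays taken singly, all but 48 h replicate 3 (-0.35 to -0.51, adjusted p of up to 0.205), and without the filter or with all 30 arrays in the fit. On the second Cdkn1a probe set, 98067_at, the groups overlapped, with 1534.5, 1076.5 and 1414.0 at 0 h and 1593.6, 909.8 and 855.0 at 48 h.

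Before 48 h few members changed in wild-type-labelled epithelium. At 2 h 2 of 35 passed, beside 1.89% of all tested probe sets: Pold2, given above, and Ccnd1 (94231_at), the growth-factor-induced cyclin D1, at 511.3, 449.0 and 515.9 at 0 h and 423.9, 248.3 and 209.5 at 2 h. All 2 h arrays were lower, with replicate 1 close to the 0 h arrays (-0.81 ± 0.21, adjusted p = 0.0451). The brighter Ccnd1 probe set, 94232_at, gave 2459.5, 2381.4 and 2422.5 at 2 h, inside its 0 h range of 2263.2 to 2618.1, and the call on 94231_at was lost without any of 5 of the 6 arrays, all but 2 h replicate 1 (-0.60 to -0.87, adjusted p of up to 0.176), and without the filter, under quantile normalization, with the replicate block or with all 30 arrays. At 8 h 0 of 35 passed by limma, beside 0.244% of all tested probe sets, and without 8 h replicate 3, 1 passed. An unadjusted p under 0.05 was held by 4 of 35, beside 9.62% of all tested probe sets. By sign 27 of the 35 were below 0 h, with a member median of -0.13, beside -0.02 over all tested probe sets.

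At 16 h 2 of 35 passed, both higher, beside 9.59% of all tested probe sets: Pold2 and Cdkn1c. Cdkn1c (95471_at) encodes p57, a kinase inhibitor tied to cells leaving the cycle. It gave 788.3, 1039.2 and 849.0 at 0 h, 1327.2, 1143.0 and 1363.1 at 16 h and 805.2, 996.5 and 897.3 at 48 h. The 16 h arrays lay above all arrays of both other times, with a change of 0.52 ± 0.14 from 0 h (adjusted p = 0.0207) and of -0.51 ± 0.14 from 16 to 48 h (adjusted p = 0.0322). That 48 h against 16 h difference was the only member call among 35, beside 4.68% of all tested probe sets. The rise was lost without 0 h replicate 1 or 3 or 16 h replicate 1 or 3 (0.44, 0.49, 0.49 and 0.48, adjusted p = 0.0672 to 0.096). The return was lost without 16 h replicate 1 or 3 or 48 h replicate 1 or 3 (-0.48, -0.46, -0.43 and -0.51, adjusted p = 0.0674 to 0.205), and without the filter or with all 30 arrays.

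**Figure D4:**
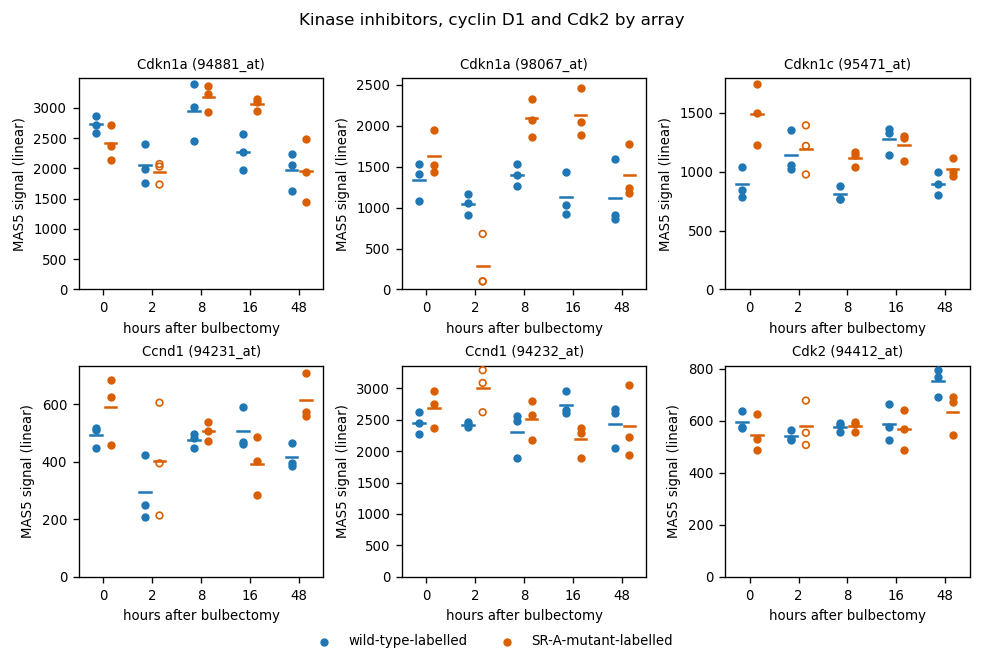
MAS5 signal on a linear axis from 0 (vertical) against hours after bulbectomy for 6 probe sets of kinase inhibitors, cyclin D1 and Cdk2, 1 point per array, with bars at group means and open points for the mutant-labelled 2 h arrays. At 16 h both Cdkn1a probe sets are higher in the mutant-labelled arrays, with 98067_at at 1890.8 to 2458.6 against 922.2 to 1434.5, and at 0 h Cdkn1c is higher in them.

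In mutant-labelled epithelium the calls against 0 h, at 8, 16 and 48 h, were Top2a, lower at 16 h, and Cdkn1c, lower at 48 h. At 8 h 0 of 35 passed by limma, beside 2.54% of all tested probe sets. Before adjustment 9 of 35 had p under 0.05, beside 16.7% of all tested probe sets. At 16 h 1 passed, beside 5.18%, and this was Top2a. It gave 443.4, 574.2 and 395.7 at 0 h and 315.0, 287.9 and 257.4 at 16 h, all 3 lower (-0.70 ± 0.15, adjusted p = 0.0115). The call was lost without 0 h replicate 2 (-0.55, adjusted p = 0.0627) or 16 h replicate 3 (-0.63, adjusted p = 0.0512). At 48 h its arrays gave 370.4, 416.0 and 384.0, which overlapped the 0 h arrays (-0.26, adjusted p = 0.289).

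At 48 h 1 of 35 members passed in the mutant-labelled arrays (2.86%), beside 13.2% of all tested probe sets. Cdkn1c gave 1224.5, 1744.8 and 1495.3 at 0 h and 994.6, 1118.3 and 965.2 at 48 h, with all 48 h arrays lower (-0.52 ± 0.14, adjusted p = 0.0136). Without 0 h replicate 2 it gave -0.40 (adjusted p = 0.0896) and without 48 h replicate 3 -0.48 (adjusted p = 0.0575), and without 48 h replicate 1 the count was 4 in place of 1. The other members leaned upward without passing: the member median was 0.15, beside 0.02 over all tested probe sets. All 6 licensing and helicase probe sets were above 0, at 0.13 to 0.39 with Mcm7 the highest (0.39 ± 0.18, adjusted p = 0.153), and 4 of 5 mitosis probe sets were, the highest being Plk1 (161292_f_at), the mitotic entry kinase polo-like kinase 1 (0.53 ± 0.22, adjusted p = 0.12).

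The order of the group means in the mutant-labelled arrays, leaving out 2 h, followed that lean. The highest mean was at 48 h for 21 of 35 member probe sets (60.0%), compared with 31.9% of all tested probe sets, and the lowest was at 8 h for 18 (51.4%), compared with 23.6%. In the wild-type-labelled arrays, over all 5 times, the lowest mean was at 8 h for 13 (37.1%, compared with 15.3% of all tested probe sets) and the highest at 0 h for 10 (28.6%, compared with 24.0%). These are descriptions of means, and no test was made on the lists.

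From 16 to 48 h 2 of 35 members passed in the mutant-labelled arrays, beside 9.0% of all tested probe sets; without 48 h replicate 1 the count was 4, and without 48 h replicate 2 it was 0. Cdkn1a (94881_at) gave 2940.9, 3147.5 and 3095.0 at 16 h and 1937.9, 1451.4 and 2489.2 at 48 h, all lower (-0.68 ± 0.17, adjusted p = 0.013; without 48 h replicate 2 -0.48, adjusted p = 0.0955). Its second probe set, 98067_at, gave 2044.0, 2458.6 and 1890.8 at 16 h and 1241.9, 1183.2 and 1769.9 at 48 h, also all lower. Ccnd1 (94231_at) gave 285.6, 402.6 and 485.7 at 16 h and 557.7, 707.9 and 573.1 at 48 h, all higher (0.67 ± 0.21, adjusted p = 0.0438). That call was lost without 16 h replicate 1 or 2 (0.46, adjusted p = 0.186; 0.71, adjusted p = 0.0855) or 48 h replicate 2 or 3 (0.56, adjusted p = 0.172; 0.72, adjusted p = 0.074), and in all 4 settings that ended the 2 h call. On the brighter probe set, 94232_at, the groups overlapped, at 2290.1, 2370.7 and 1895.8 and then 2226.2, 3057.2 and 1935.1.

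The next question was whether the genotypes differed. At 0 h 6 of 35 members passed (17.1%), beside 23.3% of all tested probe sets, so that members were not called more often than other probe sets. The mitotic genes Plk1 and Mki67 and the helicase genes Mcm3 and Mcm4 were lower in the mutant-labelled arrays, and Pold2 and Cdkn1c were higher. All 5 mitosis probe sets were lower, with a median of -0.41, and 5 of 6 licensing and helicase probe sets were, with a median of -0.35, while the medians were -0.12 over the members and -0.06 over all tested probe sets. These genotype comparisons and the time courses share their 0 h arrays.

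**Figure D5:**
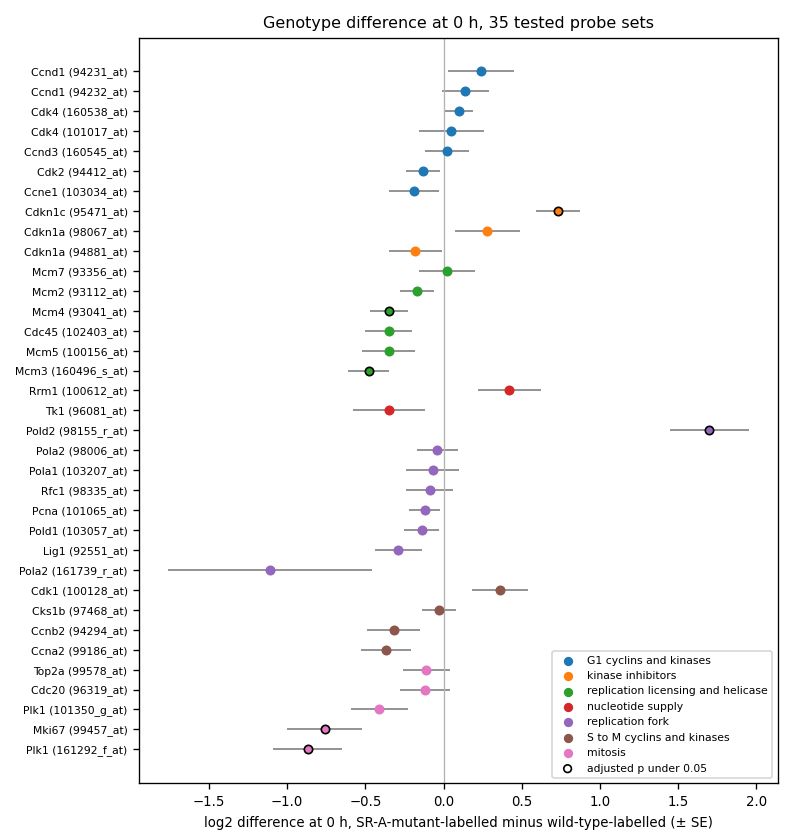
Difference of mutant-labelled minus wild-type-labelled mean log2 signals at 0 h (horizontal axis, bars are ± standard error) for the 35 tested member probe sets, grouped by role and ringed at adjusted p under 0.05. Pold2 lies far to the right at 1.70, Cdkn1c at 0.73, and Plk1 (161292_f_at), Mki67, Mcm3 and Mcm4 pass to the left of 0.

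Pold2 gave 1350.2, 1476.9 and 1436.6 in the mutant-labelled arrays at 0 h, all above the wild-type-labelled arrays at 359.6 to 592.7 (1.70 ± 0.25, adjusted p = 0.00016). With a single _r_at probe set, whether this reads a transcript level or a difference in how the probes match was not tested, which holds for every genotype value of Pold2. Cdkn1c gave 1224.5, 1744.8 and 1495.3 against 788.3, 1039.2 and 849.0, again without overlap (0.73 ± 0.14, adjusted p = 0.00101). Plk1 (161292_f_at) gave 337.7, 493.2 and 486.6 against 857.0, 754.5 and 764.1, all lower (-0.87 ± 0.22, adjusted p = 0.00873). These 3 calls held in every setting tried and without any single array. The second tested Plk1 probe set, 101350_g_at, also lay lower in all 3 mutant-labelled arrays, at 541.3, 467.5 and 536.8 against 726.8, 707.2 and 624.5, without passing (-0.41 ± 0.18, adjusted p = 0.0996).

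Mki67 gave 408.6, 501.7 and 478.6 in the mutant-labelled arrays at 0 h, below all wild-type-labelled ones at 667.8 to 881.5 (-0.76 ± 0.24, adjusted p = 0.0293). Leaving out any of 5 of the 6 arrays, all but wild-type-labelled replicate 1, ended that call, at -0.67 to -0.82 with an adjusted p of up to 0.0926, and its second probe set, 161931_r_at, gave -0.41 without the filter (adjusted p = 0.383). Mcm3 (160496_s_at) gave 748.8, 669.3 and 551.1 against 972.9, 855.5 and 901.2 (-0.48 ± 0.13, adjusted p = 0.0117), and Mcm4 gave 1059.4, 1040.7 and 1019.7 against 1220.6, 1162.3 and 1630.5 (-0.35 ± 0.12, adjusted p = 0.0407). Both encode subunits of the MCM helicase, and in both all mutant-labelled arrays were lower. Mcm3 lost its call without wild-type-labelled replicate 1 (-0.43, adjusted p = 0.051) or mutant-labelled replicate 3 (-0.36, adjusted p = 0.076), and Mcm4 without wild-type-labelled replicate 3 (-0.20, adjusted p = 0.257) or mutant-labelled replicate 1, 2 or 3 (-0.33 to -0.36, adjusted p of up to 0.0995). The second Mcm3 probe set, 100062_at, gave -0.30 without the filter (adjusted p = 0.359).

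Under quantile normalization 3 of the 6 calls at 0 h were lost: Mcm3 (-0.36, adjusted p = 0.0503), Mcm4 (-0.26, adjusted p = 0.135) and Mki67 (-0.62, adjusted p = 0.0899). Without the filter Mcm4 (adjusted p = 0.0538) and Mki67 (adjusted p = 0.0601) were lost, and with all 30 arrays Mcm4 (adjusted p = 0.0513). Beside these members, Kit and Neurod1, which mark progenitor and early neuronal stages, were lower in the mutant-labelled arrays at 0 h (-0.65, adjusted p = 0.00153; -0.86, adjusted p = 0.00698). The summed signal of the 7 tested basal and progenitor genes was 11381.3 to 12303.3 there, compared with 12730.6 to 13110.8 in the wild-type-labelled arrays, while the defining basal keratins Krt5 and Krt14 were at or below the floor in 28 and 30 of 30 arrays. The summed signal of 8 leukocyte genes was 21140.3 to 22472.9, compared with 11847.0 to 18375.1. Ighm and Lyz2 made up most of that gap, with group means of 3296.4 against 74.8 and of 6895.7 against 3709.7. Other tested Ighm probe sets differed by only 1.08 and 0.45. Coro1a was also higher (0.55, adjusted p = 0.0158), while Laptm5 was lower (-0.49, adjusted p = 0.00473) with its other probe set at 0.61. The part of these marker genes in the member differences was not tested.

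At 8 h 4 of 35 members passed between the genotypes (11.4%), beside 6.85% of all tested probe sets, and all 4 had passed at 0 h in the same direction. Mcm3 gave 549.0, 516.2 and 481.4 in mutant-labelled against 736.6, 703.8 and 797.0 in wild-type-labelled arrays (-0.53, adjusted p = 0.0205), and Mcm4 gave 1124.1, 989.0 and 876.1 against 1250.5, 1406.4 and 1490.8 (-0.48, adjusted p = 0.024). For both helicase genes every mutant-labelled array was lower. Cdkn1c was higher, at 1145.5, 1044.9 and 1165.8 against 772.6, 770.2 and 883.4 (0.47, adjusted p = 0.0424), and so was Pold2, at 1292.2, 1303.2 and 1422.1 against 801.5, 866.3 and 353.2 (1.10 ± 0.25, adjusted p = 0.0154).

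The 8 h calls depended on single arrays. The Cdkn1c call was lost without any of the 6 (0.44 to 0.53, adjusted p = 0.0707 to 0.125), and also without the filter or with all 30 arrays in the fit. Without wild-type-labelled replicate 3, Mcm3 gave -0.48 (adjusted p = 0.0867), Mcm4 -0.42 (adjusted p = 0.0995) and Pold2 0.68 (adjusted p = 0.0903). Leaving out mutant-labelled replicate 2 gave -0.53 for Mcm3 (adjusted p = 0.0671), -0.47 for Mcm4 (adjusted p = 0.0753) and 1.11 for Pold2 (adjusted p = 0.0537). Leaving out mutant-labelled replicate 3 gave -0.48 for Mcm3 (adjusted p = 0.0782), -0.39 for Mcm4 (adjusted p = 0.108) and 1.05 for Pold2 (adjusted p = 0.0591). Without wild-type-labelled replicate 2 Mcm4 gave -0.46 (adjusted p = 0.0551). The direction of each of the 4 stayed the same in all of these.

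At 16 h 1 of 35 passed between the genotypes, beside 11.2% of all tested probe sets. Cdkn1a (98067_at) gave 2044.0, 2458.6 and 1890.8 in mutant-labelled and 1434.5, 1029.6 and 922.2 in wild-type-labelled arrays, without overlap (0.93 ± 0.21, adjusted p = 0.00879; without wild-type-labelled replicate 3 0.80, adjusted p = 0.0506; with all 30 arrays adjusted p = 0.164). Its other probe set, 94881_at, also lay without overlap, at 2940.9, 3147.5 and 3095.0 against 2273.8, 2567.2 and 1975.7, and did not pass (0.44). At 48 h 0 of 35 passed by limma, beside 20.0% of all tested probe sets. An unadjusted p under 0.05 was held by 8 of 35, beside 33.3% of all tested probe sets. The median difference was 0.06, beside -0.03 over all tested probe sets.

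The genotype difference in the change from 0 h was tested directly. It passed for 0 of 35 members at 8 h, beside 0.0% of all tested probe sets. There 1 member had an unadjusted p under 0.05, beside 10.2% of all tested probe sets. At 16 h it passed for 0, beside 0.804%, and 8 members had an unadjusted p under 0.05, beside 19.0%. It passed for 1 at 48 h, beside 4.18%. That member was Pold2, whose change was smaller in the mutant-labelled arrays by a log2 difference of -1.41 ± 0.36 (adjusted p = 0.029). Its mutant-labelled arrays gave 1656.7, 1885.9 and 2060.0 at 48 h, so that the genotypes were close at the end and apart at the start. Without wild-type-labelled 0 h replicate 2 or 3 the difference was -1.27 (adjusted p = 0.0706) or -1.33 (adjusted p = 0.0699), and without 48 h replicate 1 it was -1.18 (adjusted p = 0.0807). Without mutant-labelled 0 h replicate 2 or 3 it was -1.38 (adjusted p = 0.0531) or -1.40 (adjusted p = 0.0646), and the call was also lost without the filter (adjusted p = 0.0641) or with all 30 arrays (adjusted p = 0.0542).

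For Ccnb2 and Top2a, which were lower in wild-type-labelled arrays at 48 h, the genotype difference in the change did not pass, at 0.74 ± 0.24 (adjusted p = 0.0849) and 0.36 ± 0.22 (adjusted p = 0.373). All 5 mitosis probe sets had a more positive 48 h change in the mutant-labelled arrays, by 0.33 to 0.87 with a median of 0.40. The highest was Plk1 (161292_f_at), at 0.87 ± 0.32 (adjusted p = 0.118), followed by Mki67 at 0.71 ± 0.34 (adjusted p = 0.247). Ccna2 differed by 0.54 ± 0.23 (adjusted p = 0.179). Within the mutant-labelled arrays Ccnb2 changed by 0.12 (adjusted p = 0.715), Ccna2 by 0.10 (adjusted p = 0.73) and Mki67 by 0.27 (adjusted p = 0.498). All of these differences rest on the same 0 h arrays and on the wild-type-labelled 48 h array described above.

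The mutant-labelled 2 h arrays were compared only with that group's Gapdh control values in view. Against 0 h 2 of 35 passed, beside 17.7% of all tested probe sets. Cdkn1a (98067_at) gave 97.4, 678.4 and 100.2 at 2 h, of which 2 were at or below the floor, beside 1948.6, 1513.8 and 1429.5 at 0 h (-2.97 ± 0.41, adjusted p = 2.66e-05), a size that depends on the floor. Replicates 1 and 3, the low ones, were those with Gapdh differences of 5.59 and 1.27, and the other Cdkn1a probe set gave 1732.0, 2070.1 and 2028.5 at 2 h. Mcm4 gave 1528.2, 1265.1 and 1545.2 at 2 h, above its 0 h arrays at 1019.7 to 1059.4 (0.47 ± 0.12, adjusted p = 0.0105), and with replicate 2 as the only 2 h array, which allows no spread of its own, 0.28. Without replicate 1 it gave 0.43 (adjusted p = 0.0617). The part of RNA quality in these values was not tested.

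Between the genotypes at 2 h 2 of 35 passed, both lower in the mutant-labelled arrays, beside 9.03% of all tested probe sets. Cdkn1a (98067_at) differed by -2.33 ± 0.41 (adjusted p = 0.000635), and by -0.61 with mutant-labelled replicate 2 as the only array of its group. The size depends on the floor here too. Pola1, the catalytic subunit of polymerase alpha, gave 317.1, 414.0 and 451.0 against 676.4, 609.1 and 622.6 (-0.71 ± 0.17, adjusted p = 0.0113). Pola1 was above the pooled median of the filter in 5 of 30 arrays, including all 3 wild-type-labelled 2 h arrays. Without those 3 arrays Pola1 would have missed the filter, so its testing depended on the group that was higher here. With replicate 2 alone it gave -0.62, without mutant-labelled replicate 1 -0.56 (adjusted p = 0.106) and without wild-type-labelled replicate 1 -0.66 (adjusted p = 0.054), and under quantile normalization its adjusted p was 0.0852. Each mutant-labelled array was below every wild-type-labelled one for both probe sets.

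Of the 35 tested member probe sets 21 passed in none of the comparisons, and 17 genes had no probe set that did. Ranges of change from 0 h given here leave out the mutant-labelled 2 h arrays. These genes included the cyclins Ccnd3 and Ccne1, which drive G1 and the entry to S phase, at -0.23 to 0.31 from 0 h in either genotype, and Cdc20, the activator of the anaphase-promoting complex, at -0.35 to 0.31. Cdk4, the kinase partner of D cyclins, had both of its probe sets above all 0 h arrays at 16 h in wild-type-labelled epithelium without passing (0.60 ± 0.21, adjusted p = 0.0698; 0.22 ± 0.09, adjusted p = 0.0986). The second of these, 160538_at, was also lower in mutant-labelled than in wild-type-labelled arrays at 16 h without overlap, just short of the threshold (-0.26 ± 0.09, adjusted p = 0.0511). Among fork genes Pold1, the catalytic subunit of polymerase delta, ranged from -0.16 to 0.21 and Rfc1, of the clamp loader, from -0.24 to 0.13. Cks1b, a kinase binding protein, ranged from -0.25 to 0.24.

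Some dim members below the filter passed when the filter was dropped. Ccnd2 (97504_at), cyclin D2, gave 413.5, 366.7 and 677.8 in mutant-labelled arrays at 0 h and 202.1, 76.9 and 42.1 in wild-type-labelled ones, of which 2 were below the floor. After flooring the difference was 1.77 ± 0.39 (adjusted p = 0.00623), a size that depends on the floor, and the mutant-labelled arrays at 48 h, at 193.6, 220.3 and 41.9, were lower than at 0 h (-1.47 ± 0.39, adjusted p = 0.0285). Prim1 (96772_at), the small primase subunit, gave 332.6, 352.3 and 317.6 at 0 h and 249.5, 143.0 and 174.3 at 48 h in mutant-labelled arrays (-0.86 ± 0.20, adjusted p = 0.0141). At 16 h it gave 214.2, 209.0 and 176.4 there and 428.7, 376.6 and 360.9 in wild-type-labelled arrays (-0.96 ± 0.20, adjusted p = 0.00876). E2f1 (161427_f_at), the transcription factor that turns on replication genes, was lower in mutant-labelled arrays at 16 h (-0.68 ± 0.19, adjusted p = 0.0433), while its other probe set, 102963_at, was at or below the floor in 29 of 30 arrays. The signals shown for these 3 genes all lay below the pooled median of 572 except the highest Ccnd2 array.

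A longer list of 89 other cell cycle genes, of which 47 were tested, was set beside the members. In wild-type-labelled arrays at 16 h 4 of the 47 passed, beside 9.59% of all tested probe sets, and at 48 h 3 did, beside 18.8%. At 16 h 2 passed upward, the licensing inhibitor Gmnn (0.69 ± 0.19, adjusted p = 0.0235) and the single-strand DNA binding subunit Rpa3 (0.67 ± 0.17, adjusted p = 0.0175). The mitotic brake kinase Wee1 (-0.45, adjusted p = 0.0439) and Racgap1, of cytokinesis (-0.43, adjusted p = 0.0275), passed downward. At 48 h Gmnn was higher (0.61 ± 0.19, adjusted p = 0.0242, with overlapping arrays), while Racgap1 (-0.34, adjusted p = 0.0458) and Cks2, a small cyclin-dependent kinase binding protein (-0.41, adjusted p = 0.0446), were lower. The list's median change at 48 h was -0.10, beside -0.02 for all tested probe sets.

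In mutant-labelled arrays 2 of these 47 passed at 16 h, beside 5.18% of all tested probe sets, and 3 at 48 h, beside 13.2%, all of them lower. From 16 to 48 h 7 passed, 4 higher and 3 lower, beside 9.0%. Ect2, which sets up the contractile ring of cytokinesis, was already lower at 8 h (-1.95 ± 0.29, adjusted p = 0.0008), with means of 1789.8 at 0 h and 462.1 at 8 h. That was the only call of the list at 8 h, beside 2.54% of all tested probe sets. At 16 h Ect2 was lower than at 0 h by 1.69 ± 0.29 (adjusted p = 0.00181), with a mean of 552.1. Its mean at 48 h was 1825.4 (1.69 ± 0.29 from 16 h, adjusted p = 0.00148). At 0 h it was also higher than the wild-type-labelled mean of 962.5 (0.92 ± 0.29, adjusted p = 0.0278). Between genotypes at 0 h 4 of the 47 were higher in the mutant-labelled arrays and 4 lower, beside 23.3% of all tested probe sets in either direction. Beside Ect2, Rpa3, Pttg1 and Cks2 were higher, while Rb1, Racgap1, Rbl2 and Wee1 were lower. The list's median there was -0.15, beside -0.06 over all tested probe sets. The chromatin protein Hmgb2 fell by 0.72 by 16 h (adjusted p = 0.0443), and by 48 h it fell by 0.70, with overlapping arrays (adjusted p = 0.0274). At 48 h Cks2 (-0.67 ± 0.14, adjusted p = 0.00377) and the origin recognition subunit Orc4 (-0.43 ± 0.11, adjusted p = 0.0136) were lower. The list's median at 48 h was 0.01.

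Because Cdkn1a is induced by p53, 17 p53 target genes were set beside it, of which 9 were tested. In wild-type-labelled arrays at 48 h 2 were higher, Gadd45a, a growth arrest gene (0.57 ± 0.12, adjusted p = 0.00244), and Perp, of cell junctions and apoptosis (0.72 ± 0.20, adjusted p = 0.0153), while Cdkn1a was lower on 94881_at. That count stands beside 18.8% of all tested probe sets. By limma 0 of 9 passed at 16 h in either genotype, beside 9.59% and 5.18%, or at 48 h in the mutant-labelled arrays, beside 13.2%. With 9 genes, counts this small are near those shares. An unadjusted p under 0.05 was held by 1, 1 and 2, beside 25.9%, 20.9% and 29.0%. Between genotypes Mdm2 was lower in mutant-labelled arrays at 0, 16 and 48 h (-0.44, -0.62 and -0.68, adjusted p = 0.022, 0.00571 and 0.00123). Gadd45a was higher at 0 h (0.39, adjusted p = 0.0284) and lower at 48 h (-0.55, adjusted p = 0.00343). Its 48 h change differed by -0.94 (adjusted p = 0.00443). These comparisons called 23.3%, 11.2%, 20.0% and 4.18% of all tested probe sets.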

How the data were processed

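Total RNA of microdissected olfactory epithelium was hybridised to Affymetrix MG-U74Av2 arrays. The authors deposited 1 intensity per probe set and array, on a linear scale, computed with MAS5 per the submitters' processing notes, whose version those notes do not state. The 2% trimmed mean lay between 1500.7 and 1500.9 in all arrays, so global scaling was read from the values.

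Signals below 113.7, the 25th percentile of all pooled, were raised to that floor and taken as log2. Of 12488 probe sets 66 controls were left out, and 6968 passed the filter of at least 3 arrays above 572. The annotation gave 10833 probe sets 1 gene, 396 several and 1193 none, with 0 symbols updated. Group means were fitted with limma 3.58.1 in R 4.3.3 over 27 arrays, or over all 30 where mutant-labelled 2 h arrays were compared, with no block and a two-sided threshold of 0.05 after Benjamini-Hochberg adjustment. The number of arrays limits the precision. The fit was tested on simulated data for wild type 48 h against 0 h, where it recovered 89% of 2-fold and 97% of 4-fold changes with 10 false calls among 6968 probe sets. The simulation changed 100 probe sets by each size and drew independent normal noise. It therefore does not show how the fit handles shifts shared by many probe sets of an array, or more changed probe sets.

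No pairing by replicate number was seen: deviations of same-numbered arrays correlated at -0.008 on average over 108 pairs (-0.353 to 0.351), and of differently numbered ones at 0.004 over 216. Deviations were taken from group means, which ties these averages to each other. They do not show that the arrays were unpaired. Alternatives were no filter, log2(signal + 16), quantile normalization, the replicate block, all 30 arrays and each array left out. Every member could be named, with array values for those that passed. Of other lists, members passing at 16 or 48 h against 0 h were named, up to 4 in each direction. Genes of the longer list passing between genotypes at 0 h, and p53 targets passing between genotypes, were named as well. The members and lists were chosen with earlier results of these data known. Tables were made in Python 3.11.15 (pandas 2.3.3, numpy 2.4.6) and plots in matplotlib 3.10.9.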

Additional observations from a re-analysis of the deposited data

Results flagged for a closer look

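Pold2 (98155_r_at) met a rule for changes that differ between groups: its 48 h change in the mutant-labelled arrays minus that in the wild-type-labelled arrays was -1.41 on the log2 scale by the test of the difference itself. The values by array stand with the result above. No group of 3 arrays was tested for outlying arrays, since the rule needs at least 4.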

How the results depend on the processing

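Alternatives were run for 37 log2 changes, those that passed and the 48 h changes of Ccna2, Ccnb2, Mki67 and Top2a, and none of these reversed its direction. With log2(signal + 16) all 18 counts of called members were unchanged. Without the filter, over all 60 member probe sets in place of 35, the counts were 1 for wild type 2 h (2 in the report), 3 for mutant-labelled 48 h (1), 0 for wild type 48 h against 16 h (1), 1 for the mutant-labelled 48 h against 16 h (2), 4 for the genotypes at 16 h (1) and 0 for the genotype difference in the 48 h change (1). With quantile normalization they were 1 for wild type 2 h, 1 for mutant-labelled 48 h against 16 h, 3 for the genotypes at 0 h (6), 2 at 16 h, 2 at 48 h (0), 1 at 2 h (2) and 2 for the genotype difference in the 16 h change (0). With the replicate block they were 1 for wild type 2 h, 1 for mutant-labelled 48 h against 16 h, 2 for the genotypes at 16 h and 1 for the genotype difference in the 16 h change; the block changed no other of the 18 counts by over 1.5 times. With all 30 arrays they were 1 for wild type 2 h, 0 for wild type 48 h against 16 h, 1 for mutant-labelled 48 h against 16 h, 0 for the genotypes at 16 h and 0 for the difference in the 48 h change. With replicate 2 as the only mutant-labelled 2 h array they were 1 against 0 h and 1 between genotypes. The cause of these shifts was not tested.

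With each array left out in turn, counts ran from 0 to 2 (wild type 2 h), 0 to 1 (8 h), 1 to 2 (16 h), 3 to 5 (48 h) and 0 to 2 (48 h against 16 h). In mutant-labelled arrays they ran from 1 to 6 (2 h), 0 to 0 (8 h), 0 to 1 (16 h), 0 to 4 (48 h) and 0 to 4 (48 h against 16 h). Between genotypes they ran from 3 to 5 (0 h), 1 to 4 (2 h), 0 to 3 (8 h), 0 to 2 (16 h) and 0 to 3 (48 h), and for the differences in change from 0 to 0 (8 h), 0 to 1 (16 h) and 0 to 2 (48 h). Counts over all tested probe sets are not given for these fits, so the ranges have no background beside them.

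Over all tested probe sets, the fit of all 30 arrays called 40 in place of 132 at wild type 2 h, 205 in place of 477 between genotypes at 8 h and 8 in place of 56 for the difference in the 16 h change. Without the filter, among 12422 probe sets, 11 in place of 17 were called at wild type 8 h and 37 in place of those 56. With replicate 2 as the only mutant-labelled 2 h array, a group of 1 array whose spread is assumed to be that of the other groups, 320 in place of 1233 were called against 0 h and 203 in place of 629 between genotypes. At wild type 2 h quantile normalization called 115 higher and 36 lower, in place of 86 and 46. Signal over background limits dim members: 25 probe sets stayed below the filter, and Top2a, Pola1 and Ccnd1 (94231_at) passed it in 3 to 6 arrays.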
